A study of Mus musculus with 18 samples.

Results

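The probes described here were brighter in 1 or more nuclear transfer lines of mouse epiblast stem cells than in every line from a fertilized embryo. A probe was a member if its mean in NT.1, NT.2 or NT-LE was at least 9 on the log2 scale and at least 1.0 above the highest mean among FT.1, FT.2 and FT.3, with no NT line 1.0 or more below the lowest FT mean. Of 45281 probes on the array, 31 met this rule (0.0685%). They belonged to 23 genes, and 5 probes carried no gene name. The members were selected on log2, quantile-normalized line means of 3 arrays, so their levels in NT and FT lines are given as a description, without a test.

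Epiblast stem cells are pluripotent cells grown from the epiblast of the early post-implantation embryo, held in a primed state by activin and FGF signalling. In somatic cell nuclear transfer the nucleus of a differentiated cell is placed in an egg without its own nucleus, and the egg cytoplasm resets the donor genome. Genes that stay silent, become active out of place or lose parental imprinting after this reset are a known feature of cloned embryos, and separately derived stem cell lines also differ from each other without any transfer.

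Total RNA came from 18 cultures, 3 biological repeats of each of 6 lines, with 1 Illumina bead array per culture. The FT lines (FT.1 to FT.3) came from epiblasts of fertilized embryos, and the NT lines (NT-LE, NT.1 and NT.2) from epiblasts of nuclear transfer embryos. The embryos were of strain B6D2 at the pre-streak or early streak stage. They were of normal morphology except that of NT-LE, which had a large extra-embryonic ectoderm. Cells of every line grew on serum-coated dishes in defined medium with 20 ng/mL activin A and 12 ng/mL basic FGF, and none was treated. A line is a single derivation, so the 3 repeats measure the spread between cultures of a line and not between embryos. The donor cell of the NT lines was not given in the sources used here.

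Before normalization, mean intensity was 985 to 1142 on the NT-LE arrays, the 3 highest values of all, 682 to 972 on those of NT.1 and NT.2, and 636 to 792 on the FT arrays. Its part in the number of gained probes was not tested. Pluripotency markers were bright in all 6 lines, with Pou5f1 at 13.69 to 14.23 and Nanog at 11.60 to 12.15 as line means. Fgf5, a marker of the primed state, was at 12.48 to 12.70. Of the naive-state markers, Zfp42 and Klf4 were at 7.18 to 7.47, but Klf2 was at 8.3 to 8.9 and Klf5 at 10.35 to 11.04. FT.3 replicate 1 and NT-LE replicate 2 lay farthest from the other repeats of their lines. Without both, the rule found 33 probes, 28 of them shared with the 31. Erdr1, E030030I06Rik and the Asns probe were the 3 that dropped out, at margins of 0.91, 0.94 and 0.84 in place of 1.08, 1.04 and 1.02. FT.1 and FT.2 also stood apart from the other lines in genes of the sex chromosomes. Xist, the RNA that silences an X chromosome in female cells, was at 6.49 in FT.1 and FT.2, 10.95 in FT.3 and 10.99 to 11.18 in the NT lines. Eif2s3y, on the Y chromosome, was at 10.67 and 10.38 in FT.1 and FT.2 and at 6.52 to 6.62 in the other 4 lines. The part of these genes in the gained probes was not tested.

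Most gained probes belonged to 1 line. NT-LE alone met the rule at 16 probes, NT.1 alone at 6 and NT.2 alone at 6. NT.1 and NT-LE shared 3 probes, and no probe met the rule in all 3 NT lines. Under median scaling, which sets only the centre of each array equal, NT-LE alone had 45, NT.2 alone 10 and NT.1 alone 6. The margin, which is the leading NT line mean minus the highest FT line mean, had a median of 1.44 (2.72-fold) and ran from 1.02 to 8.02. Only 6 probes had a margin of 2.0 or more, and 20 had one under 1.5. In all 31 probes the lowest array of the leading line was above the highest of the 9 FT arrays. The rule chose the probes on the means of these same arrays, so this largely follows from the choice and adds no support. With the origins exchanged, 22 probes were gained in 1 or more FT lines over the highest NT line (17 in FT.1, 10 in FT.2 and 6 in FT.3). Slpi, a secreted protease inhibitor, met the margin in NT.1 and NT-LE (10.51 and 10.67, FT lines 9.33 to 9.50) but was left out by the last condition because NT.2 was at 6.61.

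NT lines that did not meet the rule at a probe lay above, within and below the FT range. Of 59 such line means, 25 lay above the FT range, 25 within it and 9 below it. At 9 probes all 3 NT line means lay above the FT range. These were the probes of Gusb, Samd9l, Sall3, Acta1, Sgip1, Erdr1, Slc4a4 and Hexa and the gained Mef2b probe. At the Tsr3 probes the 2 NT lines without the gain were both slightly below every FT line.

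The probes gained in NT-LE included signalling molecules and transcription factors of the embryo. Cdkn1c (chr7:143458339-143461059, GRCm38.p6), an imprinted cell-cycle inhibitor expressed from the maternal allele, had the largest margin of this group, 2.04 (4.11-fold). Its 3 arrays gave 10.10, 9.95 and 9.68 in NT-LE, 8.77, 8.80 and 8.63 in NT.2, and 6.69, 6.77 and 6.53 in NT.1. The FT arrays gave 7.56, 7.67 and 7.62 in FT.1, 7.09, 7.16 and 7.12 in FT.2, and 7.99, 7.95 and 7.69 in FT.3. No 2 lines overlapped on single arrays, and NT.1 was the lowest line. In FT.2 and NT.1 the probe was above background on no array, so the levels there are upper bounds.

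Shh (chr5:28456840-28467101), the hedgehog ligand made by the node and notochord, was gained in NT-LE at 2 probes. ILMN_2610013 gave 11.48, 10.96 and 11.08 on the NT-LE arrays. The FT arrays of this probe gave 9.57, 9.38 and 9.81 in FT.1, 8.55, 8.98 and 9.03 in FT.2, and 10, 9.24 and 9.80 in FT.3. NT.1 (9.09, 8.67 and 9.02) and NT.2 (9.72, 9.76 and 9.21) lay inside the FT values. The second probe, ILMN_2802979, was at 9.19 in NT-LE and at 7.42 to 8.002 in the other 5 lines, a margin of 1.19.

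Gbx2 (chr1:89927962-89931176), a homeobox factor of the midbrain-hindbrain boundary that is also active in naive pluripotent cells, was at 10.16, 10.61 and 10.09 in NT-LE. The highest FT array was FT.3 replicate 1, at 9.56, while the other FT arrays lay between 8.33 and 8.67. Lmx1a, a LIM homeobox factor of the roof plate and of dopaminergic progenitors, had the lowest leading level of all 31 probes (9.05 in NT-LE, FT lines 7.22 to 7.90). Sall3, a zinc finger factor of the spalt family, was at 9.34 in NT-LE, 9.13 in NT.2 and 8.78 in NT.1, against 7.70 to 8.30 in FT lines. Gal, which encodes the neuropeptide galanin, was at 9.20 in NT-LE and 8.41 in NT.2 and at 6.94 to 8.03 in FT lines. Aplnr, the apelin receptor of early mesoderm and vessels, lay just inside the margin (10.23 in NT-LE, highest FT line 9.21). Its single arrays came close, with the lowest NT-LE array at 9.88 and FT.3 replicate 1 at 9.77.

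Enzymes and a transporter were also in the NT-LE group. Acot1 (chr12:84009502-84017670), a cytosolic thioesterase that releases fatty acids from coenzyme A, was gained at both of its probes that were above background in NT-LE. ILMN_3139875 gave 12.39, 12.50 and 12.35 in NT-LE, 10.46, 10.43 and 11.03 in FT.3, and 9.65, 9.54 and 9.28 in NT.2. On the same probe NT.1 gave 8.33, 8.36 and 8.18, FT.1 7.65, 7.67 and 7.77, and FT.2 7.85, 7.85 and 7.91. FT.3 was thus nearer to NT-LE than to FT.1 or FT.2, and the margin of 1.77 was taken over FT.3. ILMN_3062267 had the same order at its top, with 10.10 in NT-LE, 8.54 in FT.3 and 7.79 in NT.2. Of the neighbouring thioesterase genes, Acot3, Acot4 and Acot5 were above background on no array, and the brightest probe of Acot2 (ILMN_2745889) stayed between 7.57 and 7.99 in all lines.

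Gusb (chr5:129989011-130003049), the lysosomal beta-glucuronidase, was at 10.12, 10.25 and 10.23 in NT-LE, with line means of 9.34 in NT.2 and 9.02 in NT.1. FT.2, at 8.54, lay between those lines and FT.1 and FT.3 (7.49 and 7.43). Abcc4, an exporter of cyclic nucleotides and other anions, was at 11.16 in NT-LE and 10.80 in NT.1, and at 9.57 to 10.02 in FT lines. Samd9l, an interferon-inducible gene, was at 9.85 in NT-LE and at 7.87 to 8.40 in FT lines. E030030I06Rik was at 9.98 in NT-LE and at 8.45 to 8.98 in the other 5 lines. Among the unnamed probes, ILMN_2419998 was at 11.70 in NT-LE against 10.37 to 10.60 in the other 5 lines, and ILMN_1256343 at 9.74 against 8.09 in FT.3, the next highest.

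NT.1 and NT-LE shared the probes of Gstm5, Sgip1 and Erdr1. Gstm5 (chr3:107895854-107898685), a mu-class glutathione S-transferase, had the largest margin of any named gene, 3.48 (11.1-fold). It gave 11.28, 11.31 and 11.23 in NT.1 and 11.02, 11.08 and 11.08 in NT-LE. NT.2, at 7.42, 7.27 and 7.15, lay among the FT lines, which gave 7.28, 7.53 and 7.52 (FT.1), 7.81, 7.74 and 7.84 (FT.2) and 7.08, 7.07 and 7.23 (FT.3). The level was thus either above 11 or below 8, with nothing between. Other genes of the cluster on chromosome 3 did not follow it. On their brightest probes, the line means of Gstm1 ran from 9.53 to 9.87, those of Gstm2 from 9.23 to 9.85 and those of Gstm6 from 8.97 to 9.38.

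Sgip1, which encodes an endocytic protein that binds endophilin, had its highest mean in NT-LE (10.99), with NT.1 at 10.66, NT.2 at 10.03 and the FT lines at 8.90 to 9.55. Its repeats lay close together, with all 3 NT.1 arrays between 10.65 and 10.67. Erdr1 (chrX:170010526-170018797), of the pseudoautosomal region that the X and Y chromosomes share, was at 11.46 in NT.1 and 11.45 in NT-LE. The FT lines were spread from 8.87 in FT.2 through 9.80 in FT.1 to 10.37 in FT.3, close to NT.2 at 10.58. Erdr1 was the only member gene placed on the X chromosome.

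NT.1 alone gained the brightest of the 31 probes. ILMN_2476405, which has no gene name in the annotation, gave 15.12, 15.19 and 15.24 in NT.1, near the top of the intensity scale, and 6.97 to 7.38 on the other 15 arrays. It was above background on 1 FT array, 1 NT.2 array and no NT-LE array. Against FT.1, the highest FT line by mean, where it was not above background, the level was at least 248-fold higher. ILMN_1224237, also unnamed, was at 10.29 in NT.1, at 9.07 in FT.2 and 8.32 in FT.3, and at 6.97 to 7.31 in FT.1, NT.2 and NT-LE. ILMN_3159435 was at 9.74 in NT.1 and 9.41 in NT-LE, with FT.3 next at 8.53.

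Tsr3 (chr17:25240141-25242799), which encodes an enzyme that modifies ribosomal RNA of the small subunit, was gained in NT.1 at 2 probes. ILMN_2435996 gave 10.04, 10.13 and 10.34 in NT.1. The other 15 arrays of this probe lay between 7.48 and 8.04. ILMN_2480021 behaved alike, at 9.85, 9.75 and 10.03 in NT.1 and 7.37 to 7.96 elsewhere. Another Tsr3 probe, ILMN_2634564, went the other way, with NT.1 the lowest line at 9.67 and the FT lines at 10.08 to 10.10. Acta1 (chr8:123891758-123894775), the actin of skeletal muscle, gave 10.003, 9.22 and 8.46 in NT.1, the widest spread of any leading line. NT-LE gave 9.05, 8.59 and 8.51 and NT.2 8.12, 8.10 and 7.83, whereas all FT arrays lay between 7.24 and 7.54.

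NT.2 gained probes of 6 genes. Tomm6 (chr17:47686645-47688386), a small subunit of the translocase of the outer mitochondrial membrane, gave 12.67, 12.89 and 12.90 in NT.2 at ILMN_1236123. The other 15 arrays lay between 10.27 and 10.76, and the margin was 2.17 (4.50-fold). A second Tomm6 probe, ILMN_1218725, was lowest in NT.2, at 12.51 against 12.72 to 12.98 in the other lines. Slc4a4, a sodium bicarbonate cotransporter, was at 9.81 in NT.2 and 8.31 to 8.64 elsewhere. Hexa (chr9:59539540-59565109), a subunit of lysosomal beta-hexosaminidase, was at 10.82, 10.73 and 10.86 in NT.2. FT.3 was the line that stood apart at this probe, with 7.45, 7.47 and 7.27 against 9.58 to 9.77 on the arrays of FT.1 and FT.2. Mef2b, a MADS-box transcription factor, was at 9.20 in NT.2, 8.53 in NT-LE and 7.91 to 8.22 in the other lines.

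Chac1 and Asns, both gained in NT.2, are targets of the response to amino acid shortage, in which the transcription factor ATF4 acts on genes of amino acid supply and glutathione turnover. Chac1 (chr2:119351242-119354326), which breaks down glutathione, gave 12.64, 12.78 and 12.51 in NT.2. NT-LE gave 11.03, 12.18 and 12.15, so that 1 NT-LE array lay inside the FT values and 2 above them. NT.1 gave 10.55, 11.00 and 10.87. The FT arrays gave 10.39, 10.35 and 10.31 (FT.1), 10.99, 11.31 and 11.12 (FT.2) and 11.19, 11.42 and 10.89 (FT.3).

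Asns (chr6:7675165-7693209), asparagine synthetase, lay just inside the margin at its gained probe, ILMN_2636755, with 9.68, 9.96 and 9.17 in NT.2. FT.3 gave 7.54, 8.44 and 9.09, so the lowest NT.2 array was barely above the highest FT array. Both other Asns probes were brighter and less variable, and NT.2 was their highest line. At ILMN_2643513, NT.2 was at 13.94 ± 0.053 and the FT lines at 13.06 ± 0.12, 13.17 ± 0.11 and 13.32 ± 0.18 (SD, n = 3 arrays per line). The promoters of Chac1, Asns and Atf3 are shown because they hold the ATF4-type element TGATGNAA or its reverse complement TTNCATCA, in capitals, within the 250 bases before the annotated start (RefSeq, GRCm38.p6, printed 5′ to 3′ on the gene's strand).
Chac1, chr2:119350992-119351241, + strand: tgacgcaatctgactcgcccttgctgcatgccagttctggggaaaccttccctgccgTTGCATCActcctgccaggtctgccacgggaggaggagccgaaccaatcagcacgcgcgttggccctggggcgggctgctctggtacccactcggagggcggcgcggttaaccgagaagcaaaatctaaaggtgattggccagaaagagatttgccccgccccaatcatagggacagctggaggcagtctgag
Asns, chr6:7693210-7693459, - strand: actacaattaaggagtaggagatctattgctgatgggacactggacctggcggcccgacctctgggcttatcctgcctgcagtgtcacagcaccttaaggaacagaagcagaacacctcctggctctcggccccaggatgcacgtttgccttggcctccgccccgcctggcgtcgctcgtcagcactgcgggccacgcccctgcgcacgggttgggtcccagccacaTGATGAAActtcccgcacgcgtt
Atf3, chr1:191183334-191183583, - strand: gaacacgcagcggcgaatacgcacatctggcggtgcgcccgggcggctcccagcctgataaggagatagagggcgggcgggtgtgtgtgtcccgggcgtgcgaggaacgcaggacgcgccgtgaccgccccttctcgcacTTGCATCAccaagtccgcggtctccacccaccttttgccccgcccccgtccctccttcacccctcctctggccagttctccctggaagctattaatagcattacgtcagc
The first base of the match lay 193 bases before the start in Chac1, 23 in Asns and 110 in Atf3, and no match was in the same window of Trib3, Ddit3 or Sesn2. Of 32851 promoters searched on both strands, 1134 (3.45%) held 1 or more such matches. The genes named here were chosen as stress response genes after the data were seen, so this share is no test of them. A match describes these letters and does not show a bound site.

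Genes of the lists that hold the members were next compared between each NT line and the mean of the 3 FT lines with limma, with genes that have a member probe left out. Over all 17908 probes tested, 525 were higher in NT.1 (2.93%) and 508 lower (2.84%). In NT.2, 1591 were higher (8.88%) and 1646 lower (9.19%), and in NT-LE 2643 were higher (14.8%) and 2027 lower (11.3%). The median difference was within 0.021 of 0 in each line. These splits depend on scaling. Under median scaling the medians moved to 0.12, 0.20 and 0.25. NT.1 then had 2036 probes higher and 237 lower, NT.2 had 7048 and 697, and NT-LE had 9261 and 656.

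In the stress and p53 response list, 3 of 13 other genes were higher in NT.2, 3 were lower, and the median difference was -0.04. The 3 that rose were Trib3, a pseudokinase induced by ATF4, Ddit3, the stress transcription factor CHOP, and Atf3, a stress-induced transcription factor. Trib3 was higher by 1.06 (SE 0.127, limma adjusted p = 1.47e-05), with NT.2 at 11.40 ± 0.19 and the FT lines at 10.03 to 10.54. Ddit3 was higher by 0.56 (SE 0.114, limma adjusted p = 0.00251), with NT.2 at 9.19 ± 0.18 and the FT lines at 8.45 to 8.81. Atf3 was higher by 0.45 (SE 0.095, limma adjusted p = 0.00335), with NT.2 at 8.46 ± 0.076 and the FT lines at 7.70 to 8.25. Sesn2, a stress-induced regulator of growth signalling, did not pass in NT.2 (difference 0.24, limma adjusted p = 0.372). The 3 called lower were the p53 targets Ccng1 (-0.56), Cdkn1a (-0.45) and Trp53inp1 (-0.38). Under median scaling 1 of the list was lower in NT.2 in place of 3, Ccng1 was at -0.29, and the median difference of the list was 0.17. In NT-LE, Trib3 and Atf3 were higher and 3 genes lower, but neither passed without the arrays FT.3 replicate 1 and NT-LE replicate 2 (limma adjusted p = 0.126 and 0.27). In NT.1 the smallest adjusted p of the list was 0.0503 by limma, at Bbc3 (-0.32).

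Cdkn1c was the only member among 22 maternally expressed imprinted genes that were tested. Of the other 21, 8 were higher and 2 lower in NT-LE (median difference 0.25), 6 higher and 3 lower in NT.2 (0.12), and 1 higher and 2 lower in NT.1 (0.01). Under median scaling 15 were higher in NT-LE, 11 in NT.2 and 6 in NT.1. Phlda2, a placental growth regulator next to Cdkn1c, was higher by 0.41 in NT-LE (SE 0.075, limma adjusted p = 0.000769) and by 0.33 in NT.2 (SE 0.075, limma adjusted p = 0.00537). In NT.1 it was lower (-0.37, limma adjusted p = 0.00635), a call that median scaling ended (-0.17, limma adjusted p = 0.19). The Phlda2 arrays of NT-LE and NT.2 overlapped (line means 11.73 and 11.65), unlike those of Cdkn1c. Slc22a18, also of this list and within 100 kb of Cdkn1c, went the other way. It was lower in NT-LE (-0.255, limma adjusted p = 0.0352) and in NT.2 (-0.302, limma adjusted p = 0.0198). Grb10, an adaptor that restrains insulin signalling, was higher by 0.61 in NT-LE (SE 0.079, limma adjusted p = 2.6e-05) and 0.49 in NT.2. Paternally expressed imprinted genes held no member, and of 13 tested, 8 were lower and 2 higher in NT.2 and likewise in NT-LE. Among them Peg3 was at 6.81 in NT.2 and 6.88 in NT-LE against 11.97 to 12.43 in the other lines. NT.2 and NT-LE were also the 2 lines with Cdkn1c above the FT range, and the part of the imprinted genes in this was not tested.

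Gbx2 was the member of 2 lists, and Shh of 1. In the neural ectoderm list, 4 of 13 other genes were higher in NT-LE and the other 9 did not pass, with a median difference of 0.12. Ncam1, a neural cell adhesion molecule, differed most (0.71, SE 0.093, limma adjusted p = 3.31e-05), followed by Rax, Map2 and Sox11 (0.42, 0.33 and 0.29). Without the arrays FT.3 replicate 1 and NT-LE replicate 2, Rax did not pass (0.27, limma adjusted p = 0.131), and 3 genes were higher and 1 lower. In the naive pluripotency list, 3 of 10 other genes, Mras, Esrrb and Fbxo15, were higher in NT-LE, but 1 was without those arrays. This was not particular to NT-LE. In NT.1, the line with the lowest Gbx2 (8.13), 3 of the 10 were also higher (Klf5, Esrrb and Fbxo15), and in NT.2 none was. In the definitive endoderm list, 2 of 10 other genes were higher in NT-LE and 3 lower, or 1 lower without those arrays. The median difference was -0.16, and 0.13 under median scaling. Trh, a prohormone gene, and Foxa1, a forkhead factor, were higher (1.35 and 0.48), while Krt19, Sox17 and Gata6 were lower (-1.57, -0.53 and -0.50). The Trh difference came mostly from a low FT.3 (11.47), since NT-LE (14.585) was close to FT.2 (14.50), with FT.1 at 13.75.

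Markers of other cell types moved in part in NT-LE, and some moved in NT.1 or NT.2 as well. Of 12 fibroblast and stroma genes tested, 6 were higher in NT-LE and the other 6 did not pass. The largest differences in NT-LE were those of Acta2, smooth muscle actin (1.33, SE 0.196, limma adjusted p = 0.000106), and Col5a1, a fibrillar collagen chain (0.88, SE 0.144, limma adjusted p = 0.000274). In NT.1, 2 of the 12 were higher (Col5a1 by 0.63 and Tagln by 0.50) and 3 lower, and in NT.2 1 was higher and 1 lower. The summed intensity of these 12 genes was 19701 to 24944 on NT-LE arrays, 12191 to 18747 on FT arrays, 12467 to 22994 in NT.1 and 12659 to 13730 in NT.2. This sum is linear, so Acta2, the brightest of the 12, weighed most in it (13.47 in NT-LE, 11.95 to 12.52 in FT lines). It does not show a rise shared by the 12 genes. Col1a2, Col3a1, Lum, S100a4, Postn and Lox were above background on no array. The part of fibroblast and stroma cells in the gained probes was not tested. More or fewer cells of a type cannot be told apart from more or less RNA per cell in these cultures. In the list of extraembryonic ectoderm and trophoblast, no gene was a member. Of 19 tested, 6 were higher and 2 lower in NT-LE, among them Cdx2, a trophoblast factor, at 8.01 against 7.13 to 7.66 in FT lines. In NT.1, 3 of the 19 were higher and 1 lower, and in NT.2 8 were lower and none higher. The summed intensity was 23012 to 27299 on NT-LE arrays and 24141 to 28464 on FT arrays. It was 26711 to 34272 in NT.1 and 14313 to 19860 in NT.2. Krt8, the brightest gene, weighed most in this sum (13.58 in NT-LE, 13.69 to 13.74 in FT lines), so it says little about dimmer markers. The trophoblast markers Elf5, Esx1, Hand1 and Tpbpa were above background on no array.

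The FT lines also differed from each other at many gained probes. The rule used the highest and the lowest FT line mean, so these differences are a description and not a test of the members. The FT range, the highest minus the lowest FT line mean, had a median of 0.60 at gained probes and 0.179 at all probes tested. This range was 1.0 or more in 8 of the gained probes. It was 2.94 at Acot1 (ILMN_3139875), where FT.3 was high, and 2.27 at Hexa, where FT.3 was low. It was 2.10 at ILMN_1224237, 1.66 at the other Acot1 probe and 1.501 at Erdr1. At the other end were Acta1 (0.03), ILMN_2476405 (0.02), the Tsr3 probes (0.15 and 0.19), Slc4a4 (0.18), Mef2b (0.22) and Tomm6 (0.26), whose FT lines lay close together. At limma's F-test over FT.1, FT.2 and FT.3, 16 of the 31 were past the threshold, and 6.01% of all probes tested were (1077 of 17908). Of the 21 members above background on all 18 arrays, 8 were. No more is read from these counts, because the FT means chose the members and the other 10 members were not above background on every FT array.

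The highest FT line, which set the margin, was FT.3 at 18 of the 31 probes, FT.2 at 12 and FT.1 at 1. Over all 17908 probes tested, FT.3 was the highest FT line at 39.1%, FT.1 at 32.7% and FT.2 at 28.3%. FT.3 was also the FT line with Xist at the level of the NT lines, and its repeats varied more than those of FT.1. The median SD between its arrays was 0.186 at the gained probes and 0.15 at all probes tested, against 0.0853 and 0.0742 in FT.1. Whether either bears on the order of FT lines was not tested.

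Other probes of the same genes were not chosen by the rule. Of the 23 member genes, 12 had a total of 25 further probes. In 9 of the 25 the leading line of the gained probe was 0.5 or more above the highest FT line. Over all probes on the array, this held for 0.466% with NT-LE as the leading line, for 0.21% with NT.2 and for 0.0994% with NT.1. The 9 were probes of Asns (0.63 and 0.69), E030030I06Rik (1.03 and 0.84), Erdr1 (0.64), Gusb (0.66, 1.07 and 0.55) and Mef2b (0.95). The 3 Gusb probes were dim, with FT line means of 6.71 to 7.21, and were above background on 9, 10 and 4 arrays. Of the other 16 probes, 10 were above background on no array and so carry no reading of the gene. Brighter ones that were not raised were those of Tsr3 (-0.43) and Tomm6 (-0.38) and the brightest Mef2b probe, ILMN_1236577 (-0.10). The Slc4a4 probe ILMN_1221628 was not raised either (-0.02), but it was dim, at 7.22 to 7.33 and above background on 13 arrays. Probes of 1 gene can read different transcripts, and the position of each probe in its gene was not used here.

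The gains were also read in cultures that had not chosen them, by applying the rule to 2 repeats per line and reading the arrays of the repeat left out. Chosen without replicate 1, 32 probes were found, and in replicate 1 all 32 had their leading NT line above the highest FT array, 20 of them by 1.0 or more (median 1.08). Without replicate 2 there were 30 probes, of which 28 stayed above the highest FT array and 23 by 1.0 or more (median 1.396, lowest -0.44). Without replicate 3 there were 33 probes, all above the highest FT array and 26 by 1.0 or more (median 1.16). The repeats of a line share its derivation, so this shows the spread of cultures only. The pooled SD between repeats had a median of 0.172 at the gained probes and 0.125 at all probes tested.

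At the edge of the rule, the 3 probes just inside the margin were those of Asns (1.02), Aplnr (1.02) and E030030I06Rik (1.04). The 3 just outside were ILMN_1258966, which has no gene name (0.99, NT.2 at 9.86), an Acta2 probe, ILMN_2923445 (0.96, NT-LE at 11.23 and FT.3 at 10.27), and a second Mef2b probe, ILMN_3111575 (0.95, NT.2 at 9.09).

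The member genes were spread over 16 chromosomes, with at most 3 on any of them (chromosome 5). Within 100 kb of 20 member genes, 65 probes of other genes were above background on all 9 FT arrays, and each was compared with the FT lines in the line that led at the member. Of these, 9 were higher, all at members led by NT-LE. The 5 lower were Slc22a18 and both Asl probes in NT-LE, a Gstm2 probe in NT.1 and Vps18 in NT.2. These counts pool members led by different lines, so the shares of single lines that follow do not match them directly. Over all probes above background on all 9 FT arrays, NT.1 had 2.84% higher and 2.88% lower, NT.2 had 9.21% and 9.93%, and NT-LE had 15.1% and 12.2%. Next to Abcc4, 2 such probes of Cldn10, a tight junction gene, were higher in NT-LE by 0.45 and 0.44. Next to Gusb both Asl probes were lower (-0.62 and -0.69). Around Gstm5, Gstm2 was lower in NT.1 at its brightest probe (-0.28, limma adjusted p = 0.0195). Its probes ILMN_1251449 and ILMN_2862470 did not pass (-0.21 and -0.16, limma adjusted p = 0.127 and 0.362). A further 5 neighbouring probes were called higher but were not above background on all FT arrays. Among these, Baiap3 (chr17:25242659-25256364), whose annotated span overlaps the end of Tsr3, was above background on 3 of 18 arrays at ILMN_1214015, with NT.1 at 7.93 and the other lines at 6.95 to 7.12. Mid1, a ubiquitin ligase gene beside Erdr1, was above background on 5 arrays and on no FT array, with NT.1 at 7.72 and the FT lines at 6.75 to 7.01. No size of difference is given for these, since their FT levels are upper bounds.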

How the data were processed

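Expression was measured on 18 Illumina bead arrays. The deposited table gives 1 linear intensity per probe and array, without detection p-values. BeadStudio and lumi were used, per the submitters' processing notes. The log2 of each intensity was quantile-normalized in limma 3.58.1 (R 4.3.3). No background was subtracted, so folds of dim probes are understated. The authors' processed values, deposited on what behaves as a log2 scale, served as an alternative. A probe counted as above background where it lay more than 3 spreads over the mode of the array's log2 values, the spread being taken from values under the mode. The 17908 probes above background on all 3 arrays of a line were tested with limma (lmFit and eBayes, 6 line means, two-sided, Benjamini-Hochberg adjustment, threshold 0.05). All 31 members passed this filter, through the line that gained them, and 21 were above background on all 18 arrays. The planned F-test among FT lines is reported as a description, because the rule used FT means. P-values measure the spread between cultures of a line. The fits were checked on simulated data.

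Genes came from the platform annotation (1 symbol for 34885 probes, several for 18, none for 10378), and positions and promoters from RefSeq (34807 probes and 17 of 23 member genes matched). The rule for named members took the largest margins of each pattern, genes in a list or with 2 member probes, and those at the margin. The remaining members were named after their values were seen, as were list genes. The members and the 24 gene lists were chosen with earlier results of these data known. The contrasts of single NT lines, the neighbour and same-gene comparisons with their filters, and the promoter search were added after the data were seen. Each list gene was read at its brightest tested probe. Tables were made in Python 3.11.15.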

Additional observations from a re-analysis of the deposited data

How the results depend on the processing

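The number of gained probes was 31 and depended on the scaling and on the limits of the rule. It was 67 under median scaling (all 31 among them, with NT-LE alone rising from 16 to 45 and NT.1 alone at 6 in both), 17 with a level floor of 10, 49 with a margin of 0.8 and 11 with a margin of 1.5. The authors' processed values gave 21, all among the 31, normexp 32 and a floor of 8 gave 40. Without 1 repeat number or 1 array it ran from 27 to 33, with 25 or more of the 31 kept. The 31 margins were recomputed in 775 cases, of which 56 moved by more than the spread between repeats. None changed sign, but the rule chose margins of 1.0 or more on these same arrays, so this adds no support. Margins fell under 1.0 most often at the gained Asns probe (8 of 25 settings), Aplnr (7), Sall3 (5) and E030030I06Rik (5). Some other members fell under 1.0 in fewer settings. The number past the threshold among FT lines, a description since the rule used FT means, was 16. It ran from 11 to 18 without 1 repeat number or 1 FT array, was 13 with the authors' processed values, and was 8 of 21 when only probes above background on all 18 arrays were tested, where fewer members remain. The replicate numbers did not pair the samples (median correlation of deviations -0.016 for same-numbered and -0.0049 for other pairs), and with the replicate block the number was 16. No depth is known for arrays, and 3 arrays per line limit the precision.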
